A study of Mus musculus with 2 samples.

Results

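Glutathione peroxidases and glutathione transferases were followed across the cell classes of the mouse testis and between 2 genotypes. The 9 genes were chosen by name, with earlier results of these data known, so they are not an independent sample of the pathway, and the study itself had singled out Gpx1 and Gstm1 on these libraries. They are the peroxidases Gpx1, Gpx3 and Gpx4, the mu-class transferases Gstm1, Gstm2 and Gstm5, the alpha-class Gsta4, the pi-class Gstp1 and the membrane-bound Mgst1. All 9 were present in both tables, among 36547 genes in all. The study prepared single-cell RNA libraries from dissociated testes (GEXSCOPE kit, paired reads on a HiSeq X) of C57BL/6 mice at 12 weeks of age, 1 from WT and 1 from Alkbh5-/- animals, here called KO. Alkbh5 encodes a demethylase of N6-methyladenosine in RNA, and the KO lacks it in every cell, having been bred from heterozygous parents. The introduction describes 1 mouse for each genotype and the methods 3, so a library may be a pool. With 1 library for each genotype, no difference between WT and KO has a replicate check and no test was made. All intervals are 95% intervals and cover counting error only.

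Glutathione peroxidases reduce peroxides at the expense of glutathione, the main small thiol of the cell. Gpx1 is the cytosolic form, Gpx3 the secreted plasma form, and Gpx4 reduces lipid peroxides in membranes and becomes a structural protein of the sperm midpiece. All of these are selenoproteins. Glutathione transferases join glutathione to reactive compounds, and Gsta4 prefers aldehydes that arise from lipid peroxidation, while Mgst1 sits in the membranes of the endoplasmic reticulum and the outer mitochondrial membrane. Leydig cells make testosterone in the interstitium through cytochrome P450 enzymes that leak reactive oxygen, and Sertoli cells nurse the germ cells inside the tubule. Several transferases are known to be abundant in these somatic cells.

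In the GENCODE vM21 annotation of GRCm38, Gpx1 lies at chr9:108338903-108340343, Gpx3 at chr11:54902453-54910377 and Gpx4 at chr10:80047166-80056439, each on the plus strand. Gsta4 lies at chr9:78182774-78209349 and Mgst1 at chr6:138140316-138156755 on the plus strand, and Gstp1 at chr19:4035407-4037985 on the minus strand. The mu-class genes form a cluster on chromosome 3. Gstm5 at chr3:107895821-107898686 is on the plus strand, and Gstm2 at chr3:107981702-107986453 and Gstm1 at chr3:108012255-108017973 are on the minus strand, with 25801 bases between the last pair. The sequences before these 3 starts, from RefSeq on GRCm38, are shown because Gstm1 and Gstm2 had their highest level in Leydig-like cells and Gstm5 in germ cells. Bases inside the annotated genes were left out, and capitals mark matches to TGACNNNGC, the core of the antioxidant response element bound by NRF2, on either strand.
Gstm5, chr3:107895604-107895820, plus strand: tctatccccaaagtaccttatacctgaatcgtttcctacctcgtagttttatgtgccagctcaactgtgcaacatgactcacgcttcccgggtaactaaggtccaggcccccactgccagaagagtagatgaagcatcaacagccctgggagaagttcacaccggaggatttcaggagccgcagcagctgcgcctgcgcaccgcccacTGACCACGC
Gstm2, chr3:107986454-107986670, minus strand: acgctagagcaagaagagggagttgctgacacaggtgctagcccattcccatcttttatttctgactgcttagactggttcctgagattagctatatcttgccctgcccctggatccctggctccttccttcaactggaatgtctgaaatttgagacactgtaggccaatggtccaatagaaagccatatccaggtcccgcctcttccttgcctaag
Gstm1, chr3:108017974-108018223, minus strand: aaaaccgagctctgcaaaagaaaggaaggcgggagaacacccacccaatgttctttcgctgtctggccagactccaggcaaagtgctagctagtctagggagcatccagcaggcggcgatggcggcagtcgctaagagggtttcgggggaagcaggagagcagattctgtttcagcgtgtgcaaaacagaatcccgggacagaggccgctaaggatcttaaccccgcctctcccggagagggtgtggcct

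The core was found once in the shown sequence of Gstm5 and not in those of Gstm2 and Gstm1. Over windows of 300 bases around the start, 2 of the 8 members with a RefSeq entry held it (Gstm5 and Mgst1), where 3781 of 27025 genes did. AAGGTCA, the half-site of the steroidogenic factor NR5A1, was in none of the 8 and in 5.38% of all genes. These are matches of letters in a short window and show nothing of binding. The study measured Gpx1 and Gstm1 by RT-qPCR as well, and its primers are shown because they read another stretch of the transcript than the 3′ ends counted here.
Gpx1 forward: agtccaccgtgtatgccttct
Gpx1 reverse: gagacgcgacattctcaatga
Gstm1 forward: atactgggatactggaacgtcc
Gstm1 reverse: agtcagggttgtaacagagcat

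The Gpx1 pair spans 105 bases, ending 677 bases before the end of the longest coding transcript. The Gstm1 pair spans 349 bases and ends 733 bases before it. Against the other mu-class genes the Gstm1 forward primer had at least 4 mismatches and the reverse primer at least 4, while both matched the pseudogene Gstm2-ps1 exactly. The single-cell counts themselves come from transcript ends. None of the 401 windows of 100 bases in the last 500 bases of Gpx1, Gpx3, Gstm1, Gstm2, Gstm5, Gsta4 or Mgst1 was shared exactly with another gene. In contrast, 75.1% of the windows of Gpx4 were shared with Gpx4-ps2 and another annotated copy, and 67.3% of those of Gstp1 with Gstp2 and Gstp-ps, so the split of reads between these copies is uncertain.

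The deposited values were UMIs, counts of RNA molecules. In WT, 80283221 UMIs were spread over 5756 barcodes, and in KO 82056760 over 7012, with 45 barcodes seen in both. The targeted gene, Alkbh5, was counted 607 times in WT and 5 times in KO. After clustering without the glutathione genes, 16 clusters were named by marker genes. The class called sperm keeps a name used by the study. Its clusters had Prss58, Tnp2, Tnp1, Prm1, Klk1b8 and Spem1 among their leading genes, which mark elongating and condensing spermatids. Its levels are thus not those of mature sperm alone. The germ cell classes held 5588 WT and 5302 KO cells, the Leydig-like class 92 and 1169, the Sertoli-like class 51 and 446, and the macrophage-like class 24 and 71. All 13 Leydig, all 16 Sertoli and 16 of 17 macrophage markers were detected in the class of that name, taken over both libraries together. In the WT Sertoli-like cells alone, 1 of the 16 Sertoli markers had no UMI. There 27 genes used as sperm markers took 15.6% of UMIs and the Sertoli markers 1.00%. The borders of the classes moved between runs of the clustering that differed only in computer arithmetic, so a value near a limit is uncertain. Levels are given as UMIs per 1000000 UMIs of a class (CPM), and a gene was called higher or lower when its CPM differed at least 1.5-fold and its mean over both libraries was at least 20 CPM.

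The 9 genes were split into a germ cell set of 2, Gpx4 and Gstm5, and a somatic set of 7. The first name refers to the later germ cells, from late spermatocytes on. In WT, germ cells held 98.6% of all Gpx4 UMIs and 98.8% of all Gstm5 UMIs, beside 97.8% of the UMIs of all genes. In KO these shares were 89.8% and 93.4%, beside 81.0%. By level, Gpx4 and Gstm5 had 1894 and 2953 CPM over WT germ cells, and 1794 and 2389 CPM in WT Sertoli-like cells. Leydig-like cells were 92 of 5756 WT barcodes and held 96.1% of Gstm1, 94.1% of Gstm2, 93.2% of Mgst1, 77.8% of Gpx1, 70.1% of Gstp1 and 63.8% of Gpx3 UMIs. Gsta4 had 49.6% in Leydig-like cells, 17.4% in Sertoli-like cells and 32.8% in germ cells. In KO the Leydig-like share of Gpx3 was 90.4%, and Sertoli-like cells held 42.0% of Gsta4 and 35.9% of Gstp1.

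**Figure D1:**
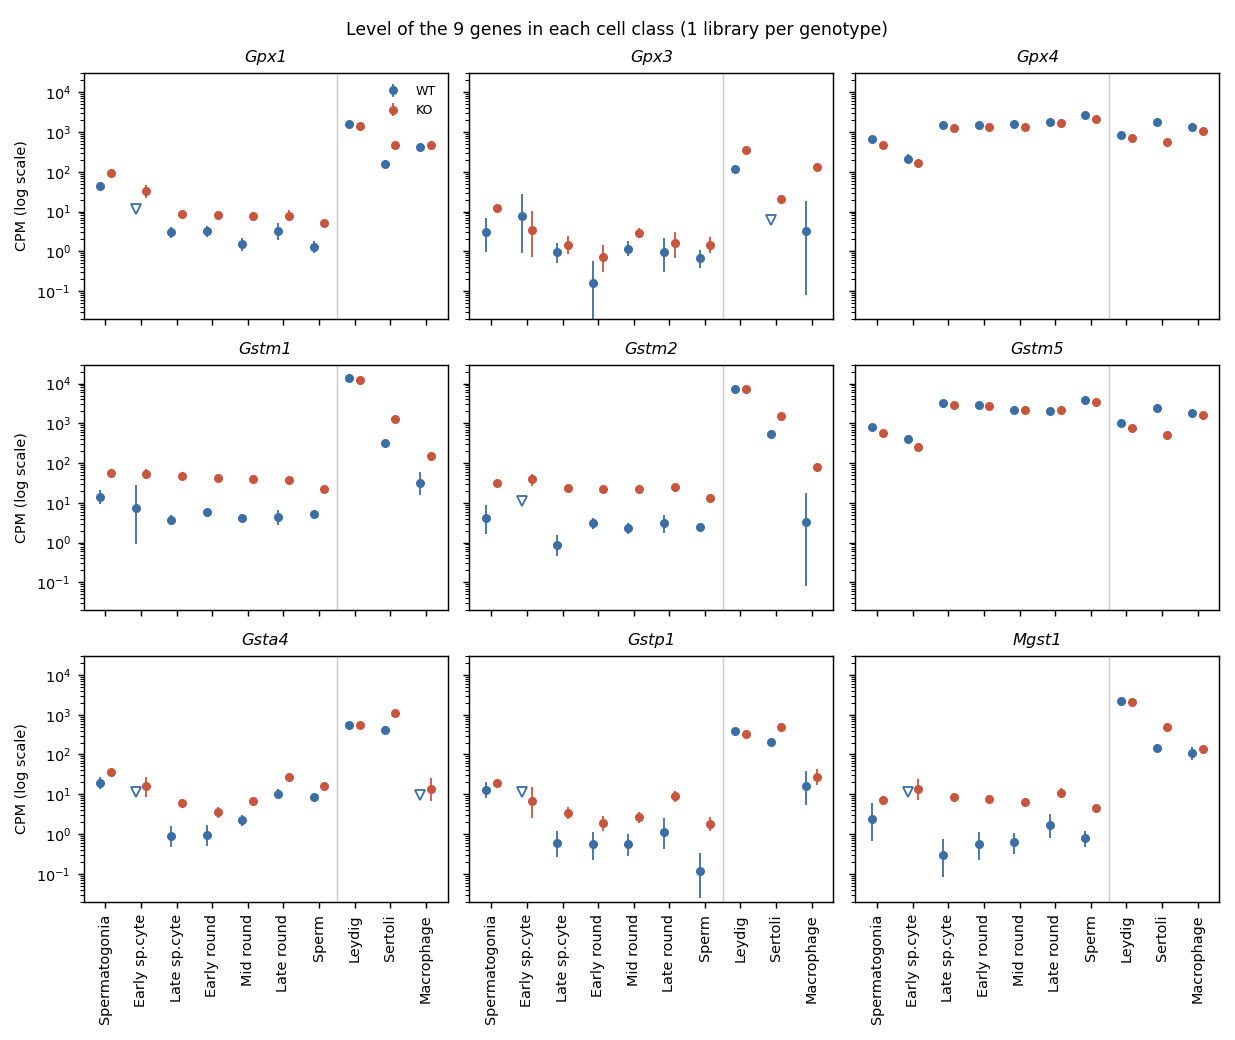
CPM of the 9 genes (log axis) in each cell class for WT (blue) and KO (red), with exact Poisson 95% intervals that cover counting error only. Open triangles stand at the CPM of 3 UMIs where none was counted. Gpx4 and Gstm5 were high in germ cells from late spermatocytes to sperm. The other 7 genes were highest in Leydig-like or, for Gsta4 and Gstp1 in KO, Sertoli-like cells.

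**Figure D2:**
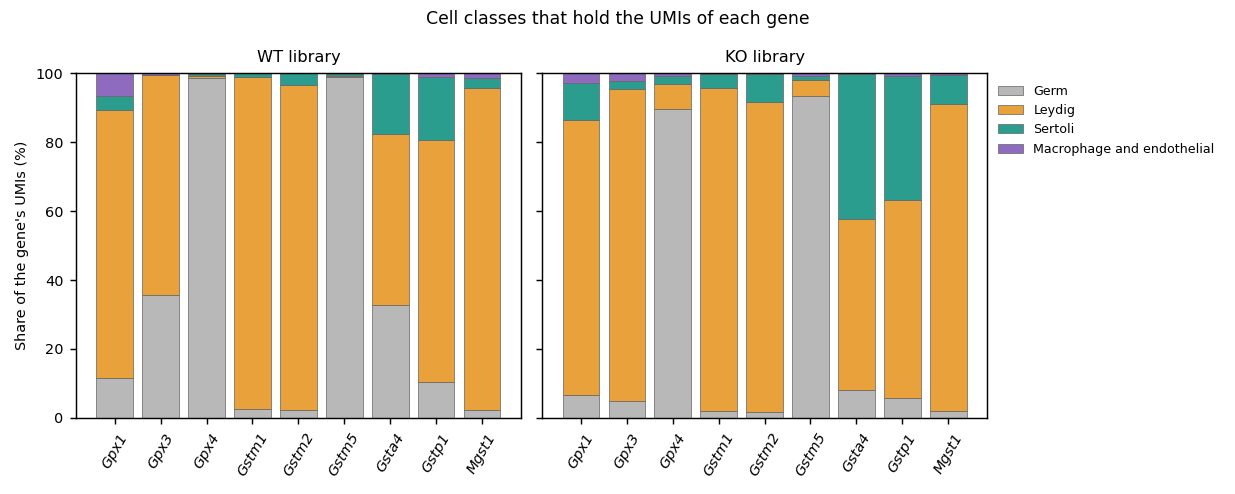
Share of the UMIs of each gene (percent, bars from 0 to 100) held by germ, Leydig-like, Sertoli-like, and macrophage-like with endothelial-like cells, in the WT library on the left and the KO library on the right. Leydig-like cells held most UMIs of Gpx1, Gpx3, Gstm1, Gstm2, Gstp1 and Mgst1 in both.

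In Leydig-like cells, 8 of the 9 genes differed by less than 1.5-fold between WT and KO, and Gpx3 was 2.97-fold higher in KO. By the same criteria 6.35% of 5099 genes were higher and 16.5% lower in KO in this class, against 1 and 0 of the 9. Gstm1, a transferase of the liver and steroid-making tissues, stood at 13712 CPM in WT and 12418 in KO, so that 1.37% and 1.24% of all UMIs of these cells were Gstm1. Its log2 ratio of KO to WT was -0.14, with an interval of -0.17 to -0.12. Gstm2 stood at 7172 and 7215 CPM, with a log2 ratio of 0.01 (-0.03 to 0.04). Both ratios lay far inside the 1.5-fold limit.

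Mgst1, the membrane-bound transferase, had 2212 CPM in WT and 2144 in KO, a log2 ratio of -0.05 (-0.11 to 0.02). Gsta4 had 564 and 545 CPM (-0.05, interval -0.18 to 0.08). For these and Gstm2 the counting interval included 0. Gpx1, the cytosolic peroxidase, had 1557 and 1450.2 CPM, a log2 ratio of -0.10 (-0.18 to -0.03), and Gstp1 had 387 and 329 CPM. Gpx4 had 820.5 and 711 CPM, and Gstm5, the germ cell transferase, showed the lowest ratio of the 9, at 992 and 763 CPM (-0.38). The 27 genes used as sperm markers summed to 1.51% of Leydig-like UMIs in WT and 1.26% in KO, with none of them at 0. Their part in the Gstm5 and Gpx4 ratios was not tested.

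The Leydig markers made up 5.98% of the UMIs of the class in WT and 8.16% in KO, with 9 of 13 higher in KO. Among those higher, Ptgds had 12629 CPM in WT and 27155 in KO, and Lcn2 12836 and 23723. Cyp17a1, at 10430 and 5568 CPM, and Cyp11a1, at 4223 and 1576, were lower in KO, as were Star and Lhcgr. Per UMI of these markers, a scaling added after the data had been seen, Gstm1 was 0.663 and Gpx1 0.682 times the WT value, and Gpx3 was still 2.17-fold higher. On that scale 4 members, Gpx4, Gstm1, Gstm5 and Gstp1, passed the limit as lower. How far these calls depend on the choice of markers was not tested. Which denominator is nearer to RNA per cell cannot be told apart in these data.

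Gpx3 in Leydig-like cells rested on 120 UMIs in WT and 3679 in KO. Its level was 121 CPM (99.9 to 144) in WT and 358 CPM (346 to 369.5) in KO, a log2 ratio of 1.57 (1.31 to 1.84). A Gpx3 UMI was found in 38.0% of the 92 WT cells (exact interval 28.1 to 48.8%) and in 60.9% of the 1169 KO cells (58.0 to 63.7%). With each cell thinned to 5729 UMIs, which left 85 and 991 cells, the shares were 25.9% and 56.9%. For comparison, 0 of 51 WT Sertoli-like cells and 4.71% of KO Sertoli-like cells had a Gpx3 UMI, at median depths of 8124 and 9101 UMIs against 9922 and 7876 in Leydig-like cells.

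The Gpx3 UMIs were unevenly spread within the class. In WT, 8 cells with 5 or more UMIs (8.70% of the cells) held 60.8% of them, and in KO 269 such cells of 1169 held 75.4%. In the 8 WT cells Leydig markers summed to 3.79% of UMIs and stromal fibroblast and peritubular markers to 0.292%, against 6.36% and 0.0818% in WT cells without Gpx3. In the KO cells with 5 or more the values were 8.05% and 0.0732%, against 8.19% and 0.0540% in cells without it. Their part in the Gpx3 ratio was not tested. Without the cell richest in Gpx3 in each library the log2 ratio was 1.81.

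In Sertoli-like cells 6 somatic genes were higher and both germ cell genes lower in KO. Of the 8 members that passed the level of 20 CPM, 6 were higher and 2 lower. In this class 57.9% of 5833 genes were higher and 23.4% lower, and the median log2 ratio was 0.82 over all genes and 1.48 over the 8 members. Gstm1 had 328 CPM in WT and 1262 in KO, a log2 ratio of 1.94 (1.72 to 2.18), and Gstm2 had 539 and 1567 (1.54, interval 1.36 to 1.72). Mgst1 had 146 and 484 CPM (1.73), Gpx1 158 and 461 (1.55), Gsta4 404 and 1077 (1.41) and Gstp1 207 and 480.4 (1.21). Gpx3 had 0 UMIs in WT, set at 3 counts or 6.15 CPM for the ratio, and 20.2 CPM in KO.

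Gpx4 was lower in KO (1794 CPM in WT, 552 in KO, log2 ratio -1.70), as was Gstm5 (2389 and 519, log2 ratio -2.20). Over all germ cells the same genes had 1894 and 2953 CPM in WT. The 27 sperm markers summed to 15.6% of WT Sertoli-like UMIs and 2.10% of KO ones, with 0 of 27 higher in KO, and their part in these ratios was not tested. The 16 Sertoli markers took 1.00% of WT and 2.53% of KO UMIs, 2.52 times as much, with 15 of the 15 markers seen in WT higher in KO. Per UMI of these markers, the KO value was 1.53 times the WT value for Gstm1, 1.32 for Mgst1, 1.16 for Gpx1, 1.15 for Gstm2, 1.06 for Gsta4 and 0.920 for Gstp1. On that scale Gstm1 alone among these 6 passed the limit, and Gstp1 changed direction.

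**Figure D3:**
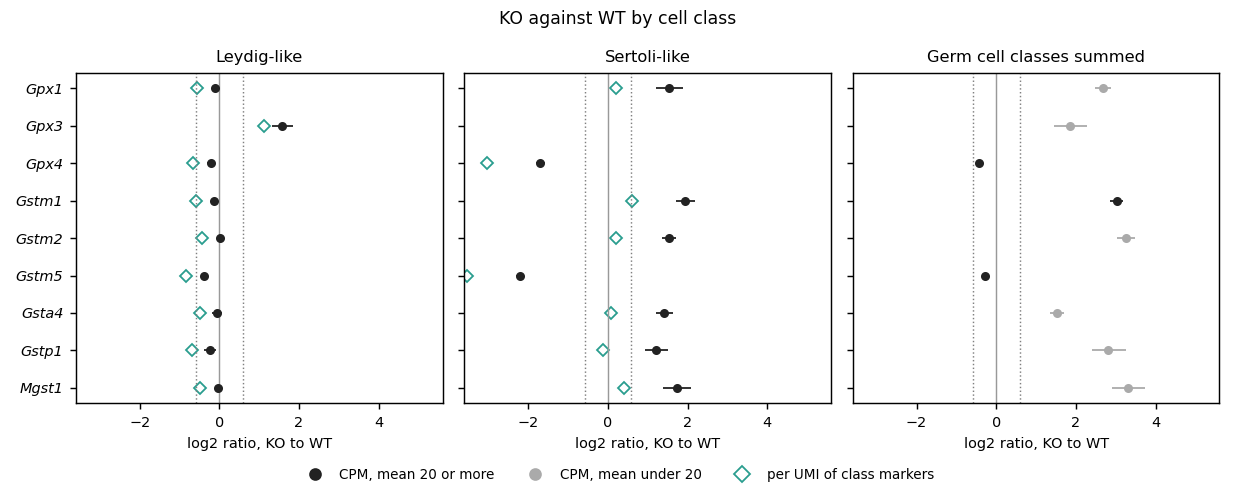
Log2 ratio of KO to WT for each gene in Leydig-like cells, Sertoli-like cells and all germ cells. Circles show CPM ratios with exact conditional 95% intervals for counting error (grey where the mean is under 20 CPM), diamonds the ratio per UMI of the class markers, and dotted lines 1.5-fold. Gpx3 in WT Sertoli-like cells had no UMI and is left out there. In Leydig-like cells Gpx3 lay alone past the dotted lines by CPM, and in Sertoli-like cells the diamonds lay nearer to 0 than the circles for the 6 somatic genes.

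Of the somatic genes, Gsta4 and Gstp1 were those for which Sertoli-like and Leydig-like levels were nearest. In KO Gsta4 stood at 1077 CPM in Sertoli-like and 545 in Leydig-like cells, and Gstp1 at 480.4 and 329. In WT both were lower in Sertoli-like cells. Leydig markers were seen in this class too. Cyp17a1, which makes the androgen precursor, had 1 UMI in WT and 0.490% of its Leydig-like level in KO. Of the other markers in KO, Star and Nr5a1, which Sertoli cells also carry, stood at 11.9% and 49.3%, and the rest reached at most 1.98% (Ptgds). Gstm1 stood at 10.2% of its Leydig-like level in KO, Gstm2 at 21.7%, Mgst1 at 22.6%, Gpx1 at 31.8%, Gstp1 at 146% and Gsta4 at 198%. These 6 lay above the markers other than Star and Nr5a1, and the first 4 lay inside the range of all 13 markers. In WT Gstm1 stood at 2.39% of its Leydig-like level, below Ptgds at 2.55%.

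Gpx4 and Gstm5 were high in every germ cell class except spermatogonia and early spermatocytes. In both libraries each of them stood lower in those early classes than in Leydig-like and macrophage-like cells. In KO spermatogonia Gpx4 had 462 CPM and Gstm5 578, against 711 and 763 in Leydig-like cells. Gpx4 had 649.5 CPM in WT spermatogonia, 214 in early spermatocytes and 1468 in late spermatocytes, and it stood at 2702 CPM in the class called sperm. Gstm5 followed at 822, 412, 3169.7 and 3853 CPM in the same classes, with 2174 CPM in mid-stage and 2036 CPM in late-stage round spermatids between them. In WT the counting intervals of Gpx4 overlapped between late-stage round spermatids and Sertoli-like cells, and among late spermatocytes, early-stage round spermatids and macrophage-like cells. The level was highest in the sperm cluster led by Itpr3os and Spem2, where Gpx4 had 3209 CPM in WT and Gstm5 6924.

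In KO, Gpx4 was lower in 12 of 12 germ cell clusters, by log2 ratios from -0.49 to -0.09. None passed 1.5-fold, and in 11 of them the counting interval lay below 0. In the Itpr3os cluster Gpx4 had 2512 CPM in KO (-0.35, interval -0.41 to -0.30). Gstm5 was lower in 5 of 12 clusters, and its log2 ratios over the 12 ran from -0.73 to 0.07. The early spermatocyte cluster, with 34 WT and 121 KO cells, was the 1 that passed the limit, at 412 and 248 CPM. In that class 12.4% of 5620 genes were higher and 15.9% lower, against 1 (Gstm1) and 1 of the 3 members above 20 CPM. Gstm1 was also the 1 of 3 members counted as higher, with 0 lower, in late spermatocytes (where 3.06% of genes were higher and 2.94% lower), early-stage round spermatids (3.23% and 2.87%), mid-stage round spermatids (6.57% and 3.5%) and late-stage round spermatids (8.72% and 4.87%). In these classes and in early spermatocytes, Gstm1 had 3.65 to 7.63 CPM in WT and 38.5 to 53.7 in KO. It passed 20 CPM only through KO, so it could only be counted as higher. As a share of its Leydig-like level, KO Gstm1 lay inside the range of the Leydig markers in each of these classes. In sperm (16% and 3.65%) neither of the 2 members above 20 CPM passed the limit. Over all germ cells Gpx4 had 1894 CPM in WT and 1393 in KO, and Gstm5 2953 and 2417. The summed ratios mix levels and class composition, since sperm made up 42.1% of WT and 18.9% of KO barcodes. The processed pseudogene Gpx4-ps2, which shares the Gpx4 end, had 147 CPM in WT and 99.4 in KO germ cells.

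**Figure D4:**
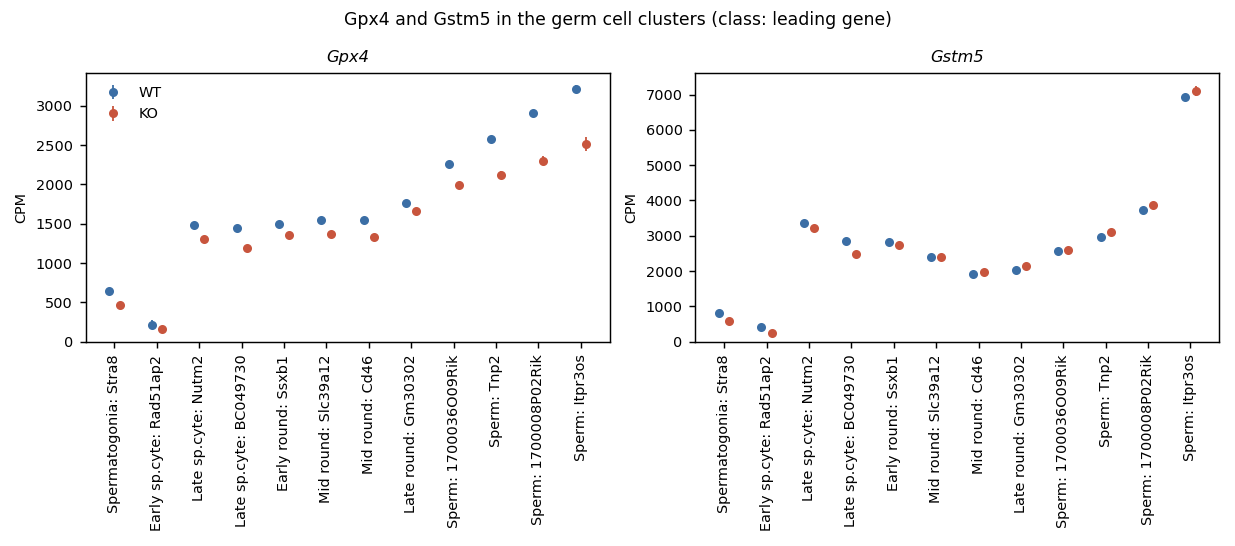
CPM of Gpx4 (left) and Gstm5 (right) in the 12 germ cell clusters, named by class and leading gene, for WT (blue) and KO (red) with exact Poisson 95% intervals. Clusters are ordered by class and within a class in no order of maturation. Gpx4 lay lower in KO in 12 of 12 clusters, and both genes were highest in the sperm cluster led by Itpr3os.

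The 7 somatic genes had few UMIs in germ cells. As a background, the 13 Leydig markers, which germ cells should lack, were read over all germ cells. In WT they reached from 0.0142 to 0.0579% of the level in Leydig-like cells, and in KO from 0.210 to 0.372%. Gstm1 stood at 0.0357% and 0.320%, Gstm2 at 0.0325% and 0.311% and Mgst1 at 0.0323% and 0.331%, inside the range of the markers in both libraries. At such levels, 4.89 CPM of Gstm1 in WT and 39.7 CPM in KO germ cells, low expression and free RNA cannot be told apart. In WT early-stage round spermatids the interval of Gstm1 reached both sides of the highest marker. Gstm1 was the 1 member of the 3 above 20 CPM that was counted as higher in germ cells. Over all genes, 16.6% of 5614 were higher there and 4.45% lower. Gstm1 passed 20 CPM only through KO, so it could only be counted as higher.

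Gpx1, Gpx3, Gsta4 and Gstp1 stood above the marker range over all germ cells in both libraries, but not in every class. In WT, Gpx1 and Gstp1 lay at or below the highest marker in early and late spermatocytes and in sperm, and Gsta4 in early and late spermatocytes. In KO, Gpx3 lay at or below it in late spermatocytes and in early- and late-stage round spermatids. In other classes the counting interval reached both sides of the highest marker. In WT these were Gpx1 and Gstp1 in late-stage round spermatids, and Gpx3 in spermatogonia, early spermatocytes and early-stage round spermatids. In KO these were Gpx1 in late spermatocytes, late-stage round spermatids and sperm, and Gpx3 in early spermatocytes and sperm. Gstp1 did so in KO early spermatocytes and early-stage round spermatids. Of the 1251 Gpx1 UMIs of KO germ cells, 799 came from spermatogonia. Gpx1 had 43.0 CPM in WT spermatogonia (72 UMIs) and 95.1 in KO (799 UMIs), or 2.76% and 6.56% of the level in Leydig-like cells, where no marker passed 0.838% and 0.642%. A Gpx1 UMI was found in 23.5% of 187 WT and 37.4% of 1065 KO spermatogonia. Gsta4 had 19.7 and 36.4 CPM there, 10.4 and 27.1 CPM in late-stage round spermatids, and 8.43 and 16.5 CPM in sperm. In spermatogonia 3 of the 5 members above 20 CPM were higher in KO, where 4.17% of 6375 genes were higher and 12.5% lower. These were Gpx1, Gsta4 and Gstm1, the last within the marker range. Gsta4 and Gstm1 had 19.7 and 14.3 CPM in WT, so they passed 20 CPM only through KO.

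Macrophage-like cells carried Gpx1 at 414 CPM in WT (interval 345 to 492) and 471 in KO (interval 422 to 524), with a log2 ratio of 0.19 (-0.11 to 0.49). Gpx4 had 1358 and 1072 CPM and Gstm5 1817 and 1620.3, while sperm markers made up 7.79% and 5.03% of the UMIs of these cells. Of 8 members above 20 CPM, 4 were higher in KO, where 27.8% of 6117 genes were higher and 21.4% lower. These were Gstm1 with 10 and 108 UMIs, Gstm2 with 1 and 57, Gpx3 with 1 and 94, and Gstp1 with 5 and 20. Gstm2 and Gpx3 had 3.23 CPM each in WT and 78.9 and 130 CPM in KO. They passed 20 CPM only through KO, so they could only be counted as higher. Gstp1, at 16.2 and 27.7 CPM, also passed that level only through KO. The counting interval of Gstp1 (-0.68 to 2.55) included 0. The top decile of KO cells held 85.1% of the Gpx3 UMIs. Gstm1 and Gstm2 lay inside the range of the Leydig markers, which summed to 0.00129% of UMIs in WT and 0.0704% in KO. Gpx3 in KO, at 36.4% of its Leydig-like level, lay above that range. Endothelial-like cells numbered 1 in WT and 24 in KO, so no ratio was taken, and the KO cells had 1254 CPM of Gpx1.

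Over the whole libraries, without regard to cell class, 7 of the 9 genes were higher in KO, where 22.7% of 5875 genes were higher and 9.91% lower. Gpx3 was 21.2-fold, Gstm2 10.7-fold, Gstp1 10.5-fold, Mgst1 10.3-fold, Gsta4 9.72-fold, Gstm1 9.37-fold and Gpx1 9.19-fold higher. Of these, Gpx3, Gstp1 and Gsta4 had 2.34, 6.84 and 14.1 CPM in WT and passed 20 CPM only through KO. Gpx4 and Gstm5 were at 0.669 and 0.718 of the WT level. Of all UMIs, 1.24% in WT and 12.5% in KO came from Leydig-like cells, and 0.607% and 5.36% from Sertoli-like cells. When the WT level of each class was combined with the KO shares of UMIs, the resulting whole-library level was 9.84 times the WT level for Gstm1 and 8.65 times for Gpx1. The measured KO level divided by this value was 0.952 for Gstm1, 1.05 for Mgst1, 1.06 for Gpx1, 1.08 for Gstm2 and 1.16 for Gstp1. It was 1.40 for Gsta4 and 3.08 for Gpx3, and below 1 for Gpx4 (0.812) and Gstm5 (0.886). In such sums fewer cells of a type and less RNA per cell cannot be told apart.

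The other mu-class genes gave the context of Gstm1, Gstm2 and Gstm5. The 7 genes lie within 149074 bases in the order Gstm5, Gstm7, Gstm6, Gstm3, Gstm2, Gstm1 and Gstm4. Gstm7 and Gstm6, both outside the 9, were higher in Sertoli-like than in Leydig-like cells in WT, at 246 against 135 CPM and 365 against 141 CPM. In KO they stood at 641 against 127 CPM and 949 against 164 CPM. Gstm3 stood at no more than 2.14 CPM in any class, and Gstm4 had 14.8 CPM (13.1 to 16.6) in WT mid-stage round spermatids, which overlapped with 13.1 CPM (6.95 to 22.3) in WT Leydig-like cells. The class in which each of Gstm1, Gstm2, Gstm5, Gstm6 and Gstm7 was highest was the same in both libraries.

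**Figure D5:**
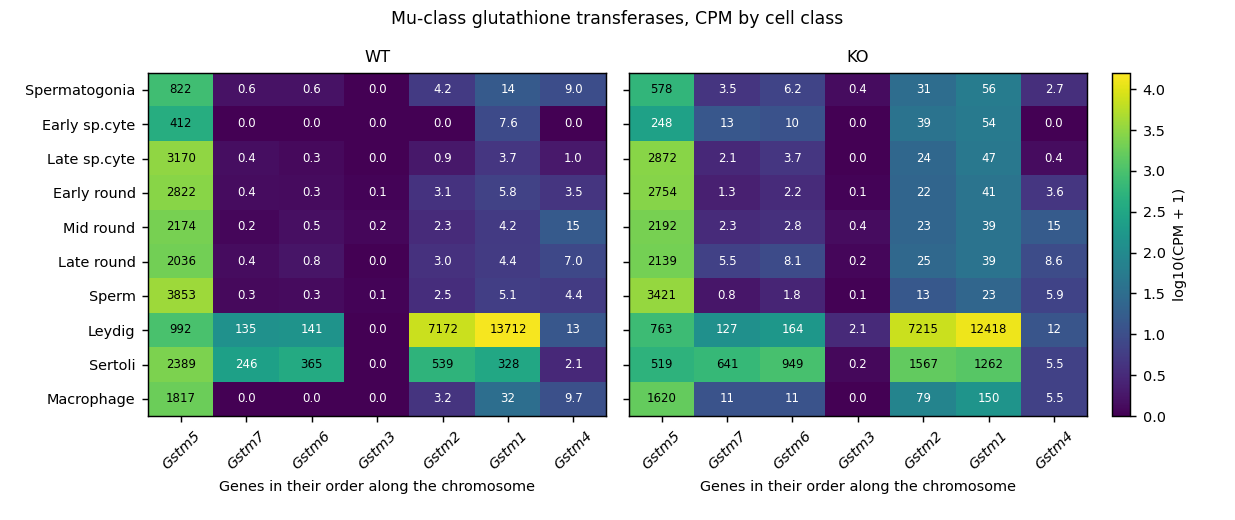
CPM of the 7 mu-class genes in each cell class, in their order along the chromosome, for WT (left) and KO (right). Colour shows log10(CPM + 1) and the printed numbers are CPM. Gstm5 was high in germ cells from late spermatocytes to sperm. Gstm6 and Gstm7 were highest in Sertoli-like cells, and Gstm1 and Gstm2 were highest in Leydig-like cells.

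The remaining genes of the pathway were taken from 4 hand-written lists. In Leydig-like cells, 2 of 16 measured other peroxidases and transferases were higher in KO and 2 lower, beside 6.35% and 16.5% of all genes, with a median log2 ratio of -0.14 against -0.10 over all genes. Gsta2, an alpha-class transferase, had 515 CPM in WT and 956 in KO (0.89, interval 0.76 to 1.02), and Gstz1, an enzyme of tyrosine breakdown, had 50.2 and 89.9. The lower ones were Gpx8, a peroxidase of the endoplasmic reticulum, with 90.4 and 34.3 CPM, and Gstt4, with 197 and 88.6. Gstt4 had 1495 CPM in WT sperm. Gsta3, known for isomerizing steroid precursors, had 1328 and 1092 CPM.

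Of 18 measured genes of glutathione synthesis, recycling and breakdown, 0 were higher in Leydig-like cells and 3 lower, with a median of -0.17, where 6.35% of all genes were higher and 16.5% lower. They were Hagh, Pgd and Gclc, the catalytic subunit of the first enzyme of glutathione synthesis, which had 28.1 CPM in WT and 18.1 in KO on 28 and 186 UMIs. Of 16 genes of the NRF2 pathway and other antioxidant enzymes, 0 were higher and 2 lower (Hmox1 and Sod3), beside the same 6.35% and 16.5%. Hmox1, the inducible haem oxygenase, had 79.3 and 38.8 CPM, and Prdx1, a peroxiredoxin, had 2170.3 and 1932. Of 3 genes of selenoprotein synthesis and supply none passed the limit, and Selenop, the carrier of selenium in plasma, had 207 CPM in WT and 304 in KO. In Sertoli-like cells, beside the background of 57.9% and 23.4%, 4 of 11 measured other peroxidases and transferases were higher and 4 lower. Of the genes of glutathione synthesis, 10 of 14 were higher there and 2 lower, and of the NRF2 list 10 of 15 were higher and 3 lower.

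Profiles over 21 class and library sums, leaving out the WT endothelial-like sum of 1 cell, grouped the members in the same way. Pearson's r of log2(CPM + 1) was 0.97 between Gstm1 and Gstm2 and 0.92 between Gpx4 and Gstm5, and the 7 somatic genes had r with Gstm5 of -0.49 to -0.35. The points share libraries, depth and free RNA, and the coefficients are a description. Among genes reaching 50 CPM in some class, those nearest to Gstm1 were Acsbg1 (0.98), Gstm2 (0.97) and Aldh1a1 (0.97), and to Mgst1 Aldh2 (0.98), Dhrs7 (0.98) and Ebp (0.97). Nearest to Gstm5 were Pgp (0.99), Crisp2 (0.98) and Pgam2 (0.98), and to Gpx4 its own pseudogene Gpx4-ps2 (0.99), Tcp11 (0.95) and Xrra1 (0.94). Gpx1 lay nearest to Rps4x (0.99), Slc48a1 (0.98) and Tspo (0.98), and Gstm2 to Aldh1a1 (0.98), Gstm1 (0.97) and Gsta2 (0.97). For Gstp1 they were Prdx2 (0.97), Hadh (0.97) and S100a11 (0.97). For Gsta4 they were Cpe (0.95), Maged2 (0.95) and Sfxn1 (0.94). Gpx3 had the least close neighbours, Mpnd (0.93), Irf8 (0.91) and Angptl4 (0.89).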

How the data were processed

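The deposited tables held counts, the number of UMIs of each gene in each cell barcode, which the authors made with the GEXSCOPE pipeline (the submitters' processing notes list featureCounts 1.6.2, STAR 2.5.3a, fastp and FastQC 0.11.7) without normalization. A human build, GRCh38, is named in the study's methods, yet the tables carry mouse symbols. A UMI stands for 1 captured transcript end, so CPM were not divided by length. The library totals of 80283221 and 82056760 UMIs set the precision. Cells with over 500 genes (all of them) were integrated with Seurat 5.3.0 in R 4.3.3 (2000 variable features less 23 glutathione genes, 20 anchor dimensions, 30 components, resolution 0.3, seed 1, on 1 processor thread) and clusters were named by marker genes. UMIs were summed by class with Python 3.11.15 and numpy 2.4.6, with exact Poisson, Clopper-Pearson and conditional intervals from scipy 1.17.1, and a count of 0 was set at 3 counts for ratios. No test between genotypes was made. Doublets (Scrublet in scanpy 1.11.5, 4.22% of WT and 4.96% of KO cells) were kept. The ratio rule was tested on simulated data.

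The members, lists and markers were chosen with earlier results of these data known. All 9 members were named, and of each list those with the highest CPM or the largest ratios past the limit, at most 6. The 3 genes with the highest r were named for each member. Gstm3, Gstm4, Gstm6 and Gstm7 were named for their place in the mu-class cluster, outside this rule, after their values had been seen. Alternatives were other cell filters, clusterings, denominators (TMM in edgeR 4.0.16, median of ratios in DESeq2 1.42.0) and limits.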

Additional observations from a re-analysis of the deposited data

How the results depend on the processing

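No paired analysis was possible because each genotype had 1 library, and for the same reason no replicate could be left out. The clustering was sensitive to computer arithmetic: the number of processor threads and the numerical library moved cells between neighbouring clusters, so 1 fixed setting was used, and between such runs Selenop, Sod3 and other list genes crossed 1.5-fold in Leydig-like cells and Gstp1 crossed 20 CPM in macrophage-like cells. With another clustering seed, added after the data had been seen, the members called in Leydig-like, Sertoli-like and germ cells were the same. In Leydig-like cells Gpx3 was the 1 member counted as higher under all settings tried, with log2 ratios from 1.12 to 2.05, and none was lower except 4 per UMI of the Leydig markers. In Sertoli-like cells 6 members were higher, against 5 by TMM and by median of ratios and 1 per UMI of the Sertoli markers, where the log2 ratio of Gstp1 reversed to -0.12. Gpx3 was counted as higher as well with a mean CPM of 5 and with no level filter. The median log2 ratio of all genes in this class was 0.82 by totals, 0.08 by TMM and -0.51 per marker UMI. It was 0.30 by totals without genes over 5 times higher in germ cells, where the same 6 members were higher. Over germ cells 1 member (Gstm1) was higher, but 0 were without doublets, where its log2 ratio was still 2.51 and its mean fell under 20 CPM. The count was 4 with a mean CPM of 5 and 7 with no level filter. None was lower, but 1 (Gpx4) was with equal weight per cell. By class, the log2 ratio of Gpx4 reached 0.07 in early spermatocytes and 0.05 in late-stage round spermatids under other settings. Its direction was thus not kept in every germ cell class. The cause of these moves was not tested. Few WT somatic cells were counted, since the Leydig-like class held 92 cells, the Sertoli-like class 51 and the macrophage-like class 24.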
